A study of Mus musculus with 8 samples.

Results

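The 8 central amygdala libraries differed widely in Slc17a7, the gene of the vesicular glutamate transporter VGLUT1. They were chosen for description by that measured level, in CPM, which is a count scaled to the same total for every library. The 4 libraries at 800 CPM or more are called Slc17a7-rich here and the 4 below are called Slc17a7-poor, so that all 8 of 8 libraries were used. High fat replicates 1, 2 and 5 and chow replicate 2 were rich, at 1626, 1211, 1076 and 1268 CPM. High fat replicate 8 and chow replicates 1, 5 and 8 were poor, at 570, 253, 200 and 84.8 CPM. The members nearest to the threshold were high fat replicate 5 above it and high fat replicate 8 below it, and the step between them was no larger by fold than the steps among the poor libraries from 570 to 253 CPM and from 200 to 84.8 CPM. Because the classes were made from the expression table itself, every difference between them below is a description and carries no test, and Slc17a7 was left out of every count and list.

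All libraries came from central amygdala of 129SV mice aged 7 months, after 20 weeks of high fat diet (4 libraries, title numbers 1, 2, 5 and 8) or of normal chow (4 libraries, with those numbers). No transgene, mutation or drug is named in the labels. Whether a library stands for 1 animal, or for several pooled, is not in the labels, so p-values given for diet reflect the spread among these 8 samples and that spread may be technical. The tissue was sequenced in bulk after poly(A) selection, and fewer cells of a type and less RNA per cell cannot be told apart.

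VGLUT1 loads glutamate into synaptic vesicles and is used mainly by excitatory neurons of the pallium, which include those of the cortex, the hippocampus and the basolateral amygdala. The central amygdala is a subpallial nucleus whose neurons are mostly GABAergic. Its neighbours in the mouse brain are the basolateral complex, the caudate putamen, the globus pallidus and the substantia innominata with its basal forebrain cholinergic neurons. Excitatory neurons of the thalamus and hypothalamus mostly use VGLUT2, the product of Slc17a6.

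The promoters of a gene from each side of the split are shown with that of Slc17a7, since the genes of these cell types differed together. Each is the 250 bases before the start of the gene, on the gene's strand, from RefSeq on GRCm38.p6. They lie at chr7:45163671-45163920 on the plus strand for Slc17a7, and on the minus strand at chr11:98329646-98329895 for Neurod2 and chr14:32465910-32466159 for Chat. Capitals mark CAGATG in Neurod2, at -118 from the start, and CAGCTG in Chat, at -150. CAGATG and CAGCTG are forms of the E-box, the element bound by proneural factors of the Neurod family and their relatives, and TAATTA is a homeodomain core. All 3 motifs were searched on both strands, and none of them is in the Slc17a7 window. The windows of Neurod6 and Lhx8, also markers of the 2 sides and not shown, held none of them either.
Slc17a7: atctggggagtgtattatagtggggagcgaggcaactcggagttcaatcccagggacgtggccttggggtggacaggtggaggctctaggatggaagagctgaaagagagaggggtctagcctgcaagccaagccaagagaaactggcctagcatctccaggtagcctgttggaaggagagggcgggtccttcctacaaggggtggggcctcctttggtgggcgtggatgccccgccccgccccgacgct
Neurod2: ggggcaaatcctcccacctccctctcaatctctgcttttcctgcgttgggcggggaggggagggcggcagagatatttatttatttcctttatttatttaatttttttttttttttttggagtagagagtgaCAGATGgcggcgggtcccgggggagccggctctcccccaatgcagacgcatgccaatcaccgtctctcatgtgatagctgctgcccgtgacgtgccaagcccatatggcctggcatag
Chat: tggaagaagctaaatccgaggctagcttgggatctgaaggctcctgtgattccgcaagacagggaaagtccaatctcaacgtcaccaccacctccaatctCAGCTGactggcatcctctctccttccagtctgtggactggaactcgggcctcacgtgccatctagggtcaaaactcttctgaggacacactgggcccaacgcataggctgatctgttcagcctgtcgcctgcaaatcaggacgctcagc
The windows were matched for 12055 of the 15185 genes used. CAGATG was in 12.9% of the 263 matched promoters of genes higher in rich libraries and in 16.1% of the 298 of genes lower there, beside 10.3% of all matched promoters. CAGCTG was in 13.7%, 19.5% and 12% of these sets in the same order. TAATTA was in 3.8%, 3.02% and 2.46% of them. A match is a run of letters and not a site of binding, and no match says only that those letters are not in this window.

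Total counts were 17451111 to 19562368 per library, and genes with at least 10 counts numbered 14896 to 15258. The 10 most abundant genes held 2.45% to 4.28% of the counts. Chow replicate 1 stood apart from the rest, at 97.6 on a first principal component that held 49.2% of the variance, while the other 7 libraries lay between -33.2 and 8.58. Its scores for choroid plexus and for ependymal cells were the highest, at 2.73 and 2.47, where a score is the mean over a list's genes of log2 CPM after each gene was centred on its mean over the 8 libraries. Chow replicates 5 and 8 stood apart on the second component, at -49.0 and -44.5 beside -14.0 to 32.3 in the rest. Their thalamus scores were 2.04 and 1.02, and no other library was above -0.18. Markers of the labelled tissue ranged widely. The central amygdala score was lowest in high fat replicate 1, at -1.65, where Isl1, a member of that list, was at 0.11 CPM, beside -0.64 to 0.85 in the other libraries. Sst, Crh, Pdyn and Penk, neuropeptide genes of central amygdala neurons that are also used by interneurons or striatal neurons, named here to check the label after their values were seen, were detected in every library, with Penk at 20.2 to 796 CPM and Sst at 223 to 463 CPM.

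Across the genome the split was broad. A gene was counted as higher or lower in rich libraries where the 4 rich and the 4 poor libraries did not overlap and the class means of log2 CPM differed by at least 1. These CPM values are scaled by TMM factors, and a prior count of 2 is added before the logarithm, which draws the differences of low genes toward 0. Of 15185 genes, 364 were higher (2.40%) and 361 were lower (2.38%). Nothing is read from these shares, since a gene of the same libraries set the classes. The classes did not overlap in 3333 genes (21.9%) when no size was required, and the median difference of all genes was 0.01. The differences from the 5th to the 95th percentile ran from -0.85 to 0.82. Among genes with a mean over 100 CPM, 88 of 2527 were higher and 48 were lower, and among those of 1 to 10 CPM, 99 of 3689 were higher and 150 lower. Without high fat replicate 8 the counts were 593 higher and 539 lower, while 345 were higher without chow replicate 1 and 346 lower without chow replicate 5.

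The 8 libraries did not form 2 equal blocks. On a scale where 0% is the mean of the other poor libraries and 100% the mean of the other rich ones, high fat replicate 8 lay at a median of 54.9% over the genes higher in rich libraries and 35.8% over the genes lower there. High fat replicate 2 lay at 82.3% and 74.2%. The other 3 rich libraries were at 97.7% to 119%, and the 3 poor chow libraries were at -34.7% to 1.85%. These genes were picked on the same libraries, so the positions only describe them.

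The rich side of the split was led by genes of pallial excitatory neurons. Values in this and the next paragraphs are TMM-scaled CPM, in the order high fat 1, 2 and 5 and chow 2 for the rich class and high fat 8 and chow 1, 5 and 8 for the poor class. Neurod2, a basic helix-loop-helix factor of postmitotic pallial neurons, was at 166, 109, 116 and 115 CPM in rich libraries and 57.4, 9.26, 9.83 and 7.52 CPM in poor ones. Class means were 127 ± 26.5 and 21.0 ± 24.3 CPM (SD, n = 4 each), a log2 difference of 3.14. In between the rich libraries and the 3 poor chow libraries lay high fat replicate 8. Neurod6, a relative of the same lineage, was at 142, 106, 66.2 and 105 CPM in rich libraries and 58.6, 3.88, 8.65 and 4.48 CPM in poor ones. Here high fat replicate 8 was close to high fat replicate 5, and the 3 poor chow libraries were far below both. Nptxr, the neuronal pentraxin receptor of excitatory synapses, was at 1179, 827, 587 and 1005 CPM in rich libraries and at 560, 91.4, 124 and 85.4 CPM in poor ones. The classes did not overlap, but the gap between high fat replicates 5 and 8 was small beside the spread within each class, of 253 and 230 CPM (SD, n = 4 each).

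Of the 18 genes in the list shared by pallial excitatory neurons, 17 were higher in rich libraries and 0 lower, with a median difference of 2.004. The list's other member, Mef2c, an activity-regulated transcription factor, differed by 1.18 with overlapping classes. Neurod1 and Bhlhe22, transcription factors of developing and adult cortical neurons, differed by 2.83 and 2.82. The list's median difference was 0.90 among the 4 high fat libraries (3 rich, 1 poor) and 2.53 among the 4 chow libraries (1 rich, 3 poor).

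**Figure D1:**
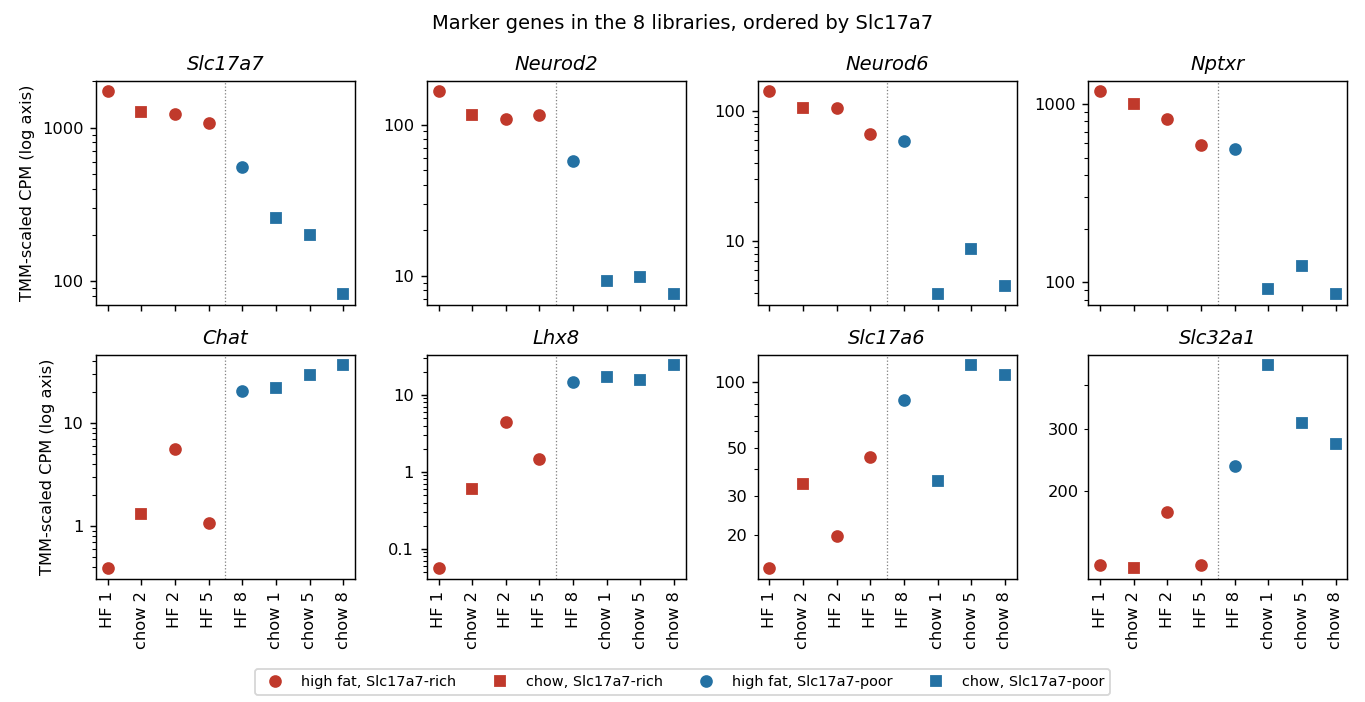
TMM-scaled CPM (log axis) of 8 genes in each library, ordered by Slc17a7 from high fat replicate 1 (HF 1) to chow replicate 8; each point is 1 library, circles are high fat and squares chow, red is Slc17a7-rich and blue Slc17a7-poor, and the dotted line is the class border. Neurod2, Neurod6 and Nptxr descend with Slc17a7 and Chat and Lhx8 lie higher right of the line, with high fat replicate 8 at 57.4 CPM of Neurod2 and 20.5 CPM of Chat.

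Markers of particular pallial regions did not move alike. In the basolateral amygdala list, 4 of 9 genes were higher, 1 was lower and the median was 1.18. Rspo2, an enhancer of Wnt signalling, was at 44.0, 19.4, 41.9 and 34.5 CPM in rich libraries and 8.78, 1.55, 2.98 and 1.99 CPM in poor ones, a difference of 3.42. Grp, which encodes gastrin-releasing peptide, differed by 3.22 and Dcn, the proteoglycan decorin, by 2.71. Rspo1, another enhancer of Wnt signalling and a member of that list, was lower in rich libraries by a difference of -1.41. Every rich library was above every poor one in Rspo2, Grp and Dcn, and high fat replicate 8 was the highest of the poor class in all 3 of them.

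In the hippocampal list, 4 of 11 genes were higher, 0 were lower and the median was 1.42. C1ql2, a synaptic organiser of dentate granule cells, was at 36.7, 24.2, 95.4 and 44.6 CPM in rich libraries and at 17.6, 3.83, 6.96 and 5.86 CPM in poor ones. Mpped1, a metallophosphoesterase gene, differed by 1.60 and Dsp, which encodes desmoplakin, by 2.004. Lct, the lactase gene, differed by 3.18 on values of 1.21 to 3.32 CPM in rich libraries and at most 0.28 CPM in poor ones. The count filter asks for enough counts in as many libraries as each diet has, and only the rich ones had them. Its direction was therefore fixed by that filter, and Lct is not read as support for the list. The count of 4 and the median above include it, and the other genes counted higher were C1ql2, Mpped1 and Dsp. Fibcd1, a marker of field CA1, overlapped between the classes, at 379 CPM in high fat replicate 1, 50.4 CPM in high fat replicate 5 and 102 CPM in high fat replicate 8.

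The deep cortical list had 3 of 9 genes higher and a median of 0.42, with Fezf2, a factor of subcerebral projection neurons, at 2.71, Crym, a thyroid hormone binding protein, at 2.06 and Rprm, a cell cycle regulator, at 1.00. In the list of claustrum, endopiriform nucleus and layer 6b, Nr4a2, an orphan nuclear receptor, and Ntng2, a netrin-like adhesion protein, were higher by 2.53 and 1.66. Nxph4, a neurexophilin of layer 6b, was lower, at -2.15, and that list's median of 0.60 became -0.18 among chow libraries alone. None of the 9 genes of upper cortical layers and piriform cortex was counted either way. Their median was -0.03, and those with the largest differences were Nectin3, an adhesion protein, at 1.201 with overlapping classes, and Cux1, a homeodomain factor, at -0.80 without overlap. The lists share members, among them Fezf2, Mef2c and Dcn, and are not independent of each other.

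**Figure D2:**
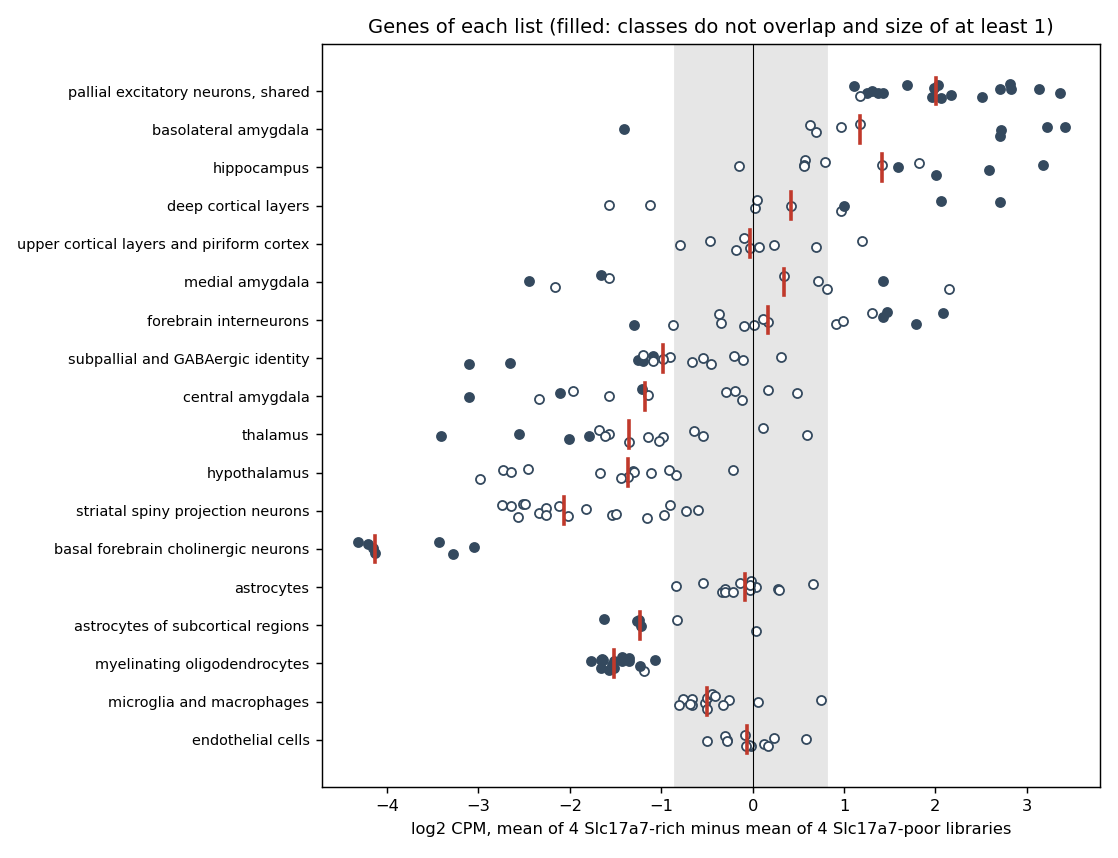
Difference of class means of log2 CPM (rich minus poor) for each gene of 18 lists; filled circles are genes whose classes did not overlap and that differed by at least 1, open circles are the rest, red bars are list medians, and the grey band runs from the 5th to the 95th percentile of all genes (-0.85 to 0.82). Shared pallial genes lie right of the band and cholinergic and myelin genes left of it, with medians of 2.004, -4.13 and -1.52.

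Genes of basal forebrain cholinergic neurons differed most in the other direction. All 7 members of the list were lower in rich libraries, with a median of -4.13. Chat, the enzyme that makes acetylcholine, was at 0.39, 5.61, 1.09 and 1.32 CPM in rich libraries and at 20.5, 21.9, 29.6 and 36.6 CPM in poor ones. Class means were 2.10 ± 2.37 and 27.2 ± 7.46 CPM (SD, n = 4 each), a log2 difference of -4.15. High fat replicate 2 was the highest rich library and stayed below the lowest poor one. Lhx8, the LIM homeobox factor that specifies forebrain cholinergic neurons, was at 0.06, 4.40, 1.47 and 0.61 CPM in rich libraries and 14.6, 17.1, 15.7 and 24.3 CPM in poor ones. For Lhx8 the classes were apart too, with high fat replicate 2 again the highest of the rich class. In both genes high fat replicate 8 was with the 3 poor chow libraries, unlike in Neurod2 and Nptxr, where it lay well above them.

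Among the receptors and transporters of these cells, Ngfr, the p75 neurotrophin receptor, differed by -3.04. Slc5a7, the choline transporter, differed by -3.43. Slc18a3, the vesicular acetylcholine transporter, differed by -4.13. It lies at chr14:32462437-32464850 inside the span of Chat at chr14:32408203-32465909, so reads of their overlapping parts may not be told apart. Slc10a4, a synaptic vesicle protein of cholinergic and monoaminergic neurons that is on no list, was lower by a difference of -3.44. The cholinergic list's median was -3.49 among high fat libraries and -4.33 among chow libraries.

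Central amygdala genes were themselves lower in rich libraries or overlapped. Of 12 genes in that list, 3 were lower, 0 were higher and the median was -1.17. Tac2, a tachykinin gene, was at 4.70, 27.0, 13.7 and 8.39 CPM in rich libraries and 36.3, 75.2, 33.5 and 56.2 CPM in poor ones. Nts, which encodes neurotensin, differed by -1.21 and Isl1, a LIM homeobox factor of striatal and cholinergic lineages, by -3.10. Prkcd, the protein kinase C delta gene that marks a class of central amygdala neurons and also thalamic ones, was at 273 CPM in chow replicate 5, 58.4 CPM in chow replicate 8 and 10.97 to 25.9 CPM in the other 6 libraries. Its classes overlapped, and in the same 2 chow libraries Tnnt1 and Ramp3, genes of thalamic neurons, were also highest.

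Striatal spiny projection neurons followed the split less cleanly. All 18 of their genes had a negative difference, with a median of -2.07, but 0 of 18 met the rule because the classes overlapped in each of them. High fat replicate 2 was above high fat replicate 8 in all but Tac1, where replicate 5 was. Adora2a, the adenosine receptor of the indirect pathway, was at 2.46, 37.1, 9.96 and 6.24 CPM in rich libraries and at 21.1, 156, 39.9 and 69.1 CPM in poor ones. Scn4b, a sodium channel beta subunit, was at 19.5, 79.8, 28.3 and 19.5 CPM in rich libraries and 77.9, 394, 258 and 222 CPM in poor ones. In both genes chow replicate 1 was the highest library and high fat replicate 8 the lowest of the poor class. The list's median was -0.80 among high fat libraries and -2.59 among chow libraries.

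General GABAergic genes differed less. In the subpallial list 5 of 15 genes were lower and the median was -0.98. Slc32a1, the vesicular GABA transporter, was at 124, 174, 124 and 121 CPM in rich libraries and 236, 455, 312 and 273 CPM in poor ones, a difference of -1.20. Gad1 and Gad2, the enzymes that make GABA, differed by -0.66 and -0.90 and were not counted. The other lower genes of the list were Isl1, Six3, Dlx6 and Ebf1, transcription factors of the subpallium, with Six3 at -2.66 and Dlx6 at -1.26. In the intercalated cell list 1 of 7 genes was lower, the zinc finger factor Sp8 at -1.17. Of the 6 globus pallidus genes, Nkx2-1, a homeobox factor of the medial ganglionic eminence, and Pvalb, which encodes parvalbumin, were lower by -2.15 and -1.30.

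Interneuron genes went in both directions. Vip, Cck and Htr3a, which mark a group of interneurons of caudal origin, were higher in rich libraries by 2.08, 1.78 and 1.43. Cck is also made by many pallial excitatory cells. Satb1, a chromatin organiser of medially derived interneurons, was higher by 1.47 and Pvalb was lower, so that 4 of 15 genes were higher, 1 lower and the median was 0.16.

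**Figure D3:**
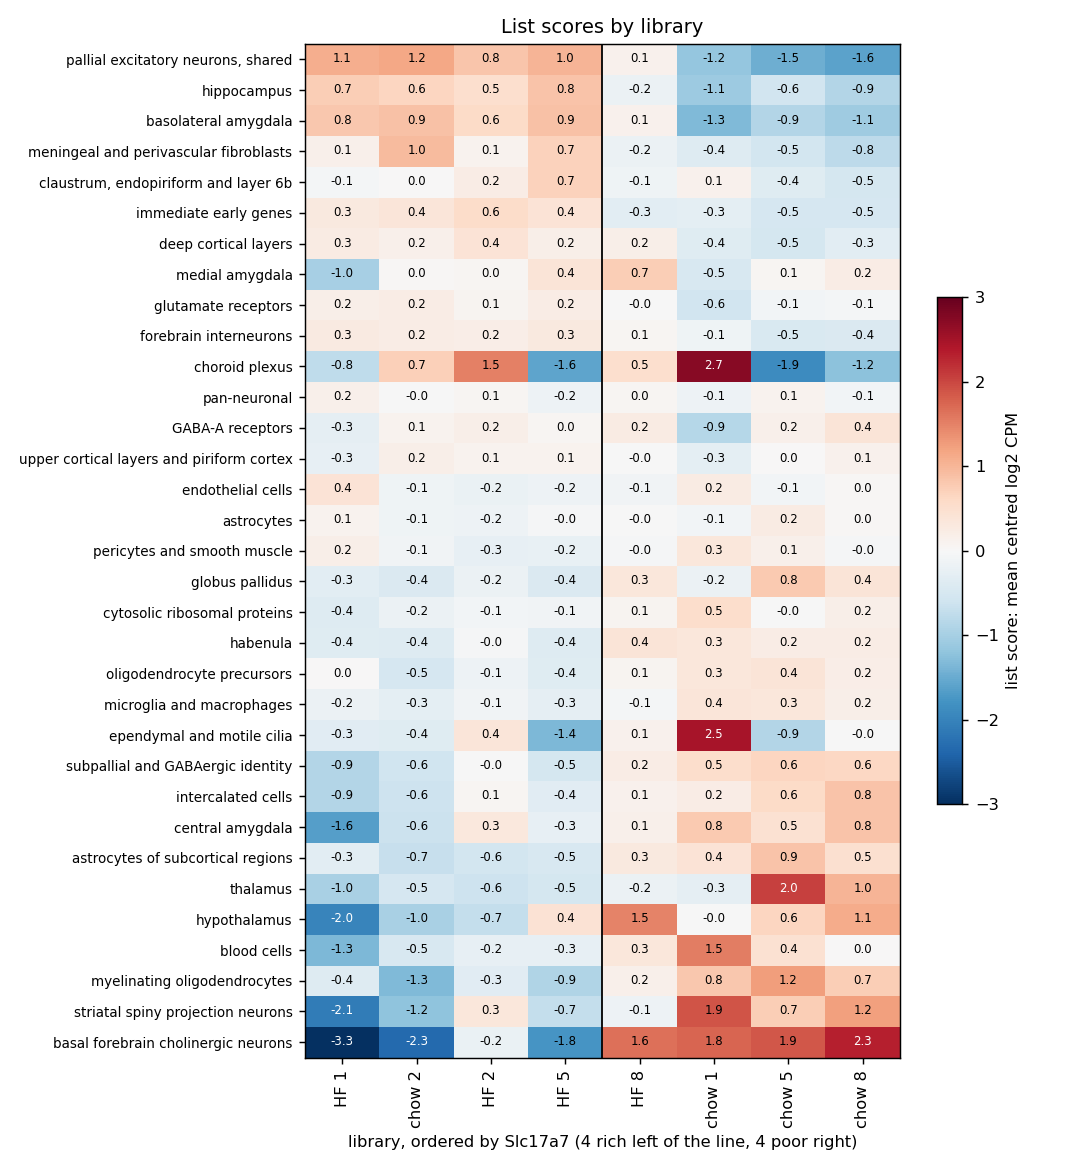
Score of each of 33 gene lists (rows, ordered by the median class difference) in each library (columns, ordered by Slc17a7), as the mean over the list's genes of centred log2 CPM; red is above and blue below the mean of the 8 libraries, HF is high fat and the black line separates rich from poor. The shared pallial score is 0.82 or more in every rich library and 0.14 or less in every poor one, the cholinergic score is negative in every rich and positive in every poor library, and the choroid plexus and ependymal rows are highest in chow replicate 1, at 2.73 and 2.47.

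Diencephalic genes were spread unevenly over the poor libraries. All 13 hypothalamic genes that passed the count filter, of 20 on the list, had negative differences with a median of -1.37, and 0 met the rule. Pmch, which encodes melanin-concentrating hormone, was at 0.34, 0.61, 52.2 and 1.05 CPM in rich libraries and at 77.9, 0.62, 55.5 and 23.6 CPM in poor ones. Avp, the vasopressin gene, was at 26.7 CPM in high fat replicate 8, 11.1 CPM in chow replicate 8 and at most 1.97 CPM elsewhere. The classes overlapped in both genes, and Pmch was high in 1 rich library and low in 1 poor one. By title number Pmch did not overlap, at 23.6 to 77.9 CPM in the libraries numbered 5 and 8 and at most 1.05 CPM in those numbered 1 and 2. Slc17a6, the VGLUT2 gene, was at 14.0, 19.8, 45.4 and 34.0 CPM in rich libraries and 83.0, 35.4, 120 and 108 CPM in poor ones, where chow replicate 1 overlapped with the rich class. Slc17a8, the VGLUT3 gene, differed by -1.33 with overlapping classes.

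In the thalamic list 4 of 15 genes were lower and the median of -1.35 became -0.60 without chow replicate 5. Gbx2, a homeobox factor of the developing thalamus, differed by -3.41. It was low, at 0, 0.83, 0.33 and 0.22 CPM in rich libraries and 2.415, 4.66, 4.94 and 2.99 CPM in poor ones. It did not follow the thalamus score, which was -0.18 in high fat replicate 8 and -0.27 in chow replicate 1. Tnnt1, a troponin gene, differed by -2.56, Tcf7l2, a Wnt effector, by -2.01 and Zic1, a zinc finger factor, by -1.79. The classes were barely apart in Tnnt1, at 1.21 CPM in high fat replicate 8 beside 1.18 CPM in high fat replicate 1. Its highest values were 35.5 and 8.35 CPM, in chow replicates 5 and 8. The habenula list had 3 of 7 genes lower, Tac2, Irx2 and Gng8, and 1 higher, Nwd2, at 1.93. In the medial amygdala list Tbr1, a T-box factor of pallial neurons, was higher by 1.43, and Lhx5 and Ecel1, a homeobox factor and an endopeptidase, were lower by -2.44 and -1.66. That list's median was 0.34, and it was -0.73 without high fat replicate 5, so it gives no direction.

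Myelin genes were lower in the rich class almost throughout. Of 16 genes of myelinating oligodendrocytes, 15 were lower and the median was -1.52. Mbp, the myelin basic protein gene, was at 3413, 3261, 2145 and 1698 CPM in rich libraries and at 4817, 10390, 10626 and 7380 CPM in poor ones. Class means were 2629 ± 840 and 8303 ± 2754 CPM (SD, n = 4 each), a log2 difference of -1.65. High fat replicate 8 was nearer to the rich libraries than to the other poor ones. Opalin, a myelin membrane protein, Aspa, an enzyme of acetylaspartate metabolism, and Gjb1, a gap junction protein, differed by -1.77, -1.66 and -1.65. Among precursor genes 2 of 11 were lower, Bcas1 and Sox10, both of which are also used by later stages of the lineage.

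The general and the subcortical astrocyte lists, which share Gfap, differed in their medians. General astrocyte genes were 0 of 14 in both directions, with a median of -0.08. Among them S100b and Slc1a2 differed by -0.84 and 0.66, without overlap but below the size rule. Of 6 genes known from astrocytes of subcortical regions, 4 were lower with a median of -1.23. Agt, the angiotensinogen gene, was at 75.8, 63.8, 74.8 and 57.2 CPM in rich libraries and 138, 134, 205 and 170 CPM in poor ones. Slc6a11, a GABA transporter, differed by -1.22, Slc6a9, a glycine transporter, by -1.26 and Itih3, a heavy chain of inter-alpha-trypsin inhibitor, by -1.63. In Agt the classes were apart and high fat replicate 8 was with the other poor libraries.

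Microglia, endothelial cells and pericytes had 0 genes counted of 15, 12 and 10, with medians of -0.50, -0.06 and -0.24. Microglial differences were negative in 13 of the 15. The microglial scores did not overlap, at -0.28 to -0.09 in rich and -0.06 to 0.37 in poor libraries, while endothelial and pericyte scores overlapped. Choroid plexus and ependymal genes were 0 of 12 and 0 of 11, and their medians of 0.15 and -0.90 became 1.18 and -0.24 without chow replicate 1. The choroid plexus median was -0.54 without chow replicate 5, so it gives no direction. Blood cell genes were lower in 5 of the 6 that passed, with a median of -1.47 that became -0.98 without chow replicate 1. They were the globin genes Hba-a1, Hba-a2, Hbb-bs and Hbb-bt, whose near-identical copies share reads, and Alas2, the erythroid enzyme of haem synthesis. Fibroblast genes were higher in 2 of 12, Dcn and Slc22a6, an organic anion transporter, and Dcn is also on the basolateral list. Differences were positive in 11 of the 12, with a median of 0.76 that ranged from 0.62 to 0.98 leaving out each library. The list's scores did not overlap, at 0.11 to 0.95 in rich and -0.78 to -0.18 in poor libraries.

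Pan-neuronal and GABA-A receptor genes differed little in their medians. Pan-neuronal genes were 1 of 14 lower, the heavy neurofilament gene Nefh at -1.12, and their median was 0.08. Of 24 glutamate receptor genes 5 were higher and 0 lower, with a median of 0.25. Their scores did not overlap, at 0.09 to 0.23 in rich and -0.57 to -0.02 in poor libraries. The NMDA receptor subunit genes Grin2a and Grin2b differed by 1.68 and 1.37, the metabotropic receptor gene Grm2 by 1.60 and the AMPA receptor genes Gria2 and Gria3 by 1.11 and 1.01. Of 14 GABA-A receptor genes Gabra2 was higher by 1.40 and Gabrq and Gabre were lower by -1.60 and -1.22, with a median of 0.003. Among 19 immediate early genes 4 were higher, Nr4a2, Nr4a3, Fosl2 and Bdnf, at 1.95 to 2.53, and the median was 0.59. Differences were positive in 17 of the 19. The scores did not overlap, at 0.29 to 0.56 in rich and -0.50 to -0.30 in poor libraries. All 24 cytosolic ribosomal protein genes had negative differences, of -0.54 to -0.18, and 0 met the size rule. That list's median was -0.40, and it was -0.39 and -0.43 with RLE factors and with column totals.

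The 12 genes with the largest positive differences included some on no list. Ntn5, a netrin, was at 9.68, 5.67, 18.1 and 13.5 CPM in rich libraries and at 2.69, 0.67, 0.62 and 0.17 CPM in poor ones, a difference of 3.74. Slc26a4, the anion exchanger pendrin, was at 22.7, 12.8, 18.5 and 17.8 CPM in rich libraries and 9.001, 0.26, 1.40 and 0.50 CPM in poor ones, also 3.74. Both were apart between the classes, with high fat replicate 8 the highest poor library. Krt2, a keratin, Smoc2 and Ccn3, matricellular proteins, and Rtn4rl2, a Nogo receptor homologue, differed by 3.14, 3.08, 2.91 and 2.79. On the other side, Th, the rate-limiting enzyme of catecholamine synthesis, differed by -2.85 and Sfrp5, a secreted Wnt antagonist, by -2.83. The highest Th, at 29.2 CPM, was in high fat replicate 8, as was the highest Slc6a3, the dopamine transporter, at 37.2 CPM.

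Genes near to Slc17a7 over the 8 libraries were found by the root mean square distance between centred log2 CPM profiles, within the set averaging 5 CPM or more. Among the nearest were Psrc1, a microtubule-associated protein, at a distance of 0.26, Rtn4rl2 at 0.27, Tbata, named for thymus, brain and testes, at 0.34 and Smoc2 at 0.36. Then came Prdm8, a PR domain factor, at 0.39, Nptx1, a neuronal pentraxin, at 0.41 and Kcng1, a potassium channel modifier, at 0.45. Psrc1 was at 17.7, 9.85, 10.4 and 13.9 CPM in rich libraries and at 5.65, 1.71, 1.52 and 0.94 CPM in poor ones, so its order was close to that of Slc17a7 but not the same.

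**Figure D4:**
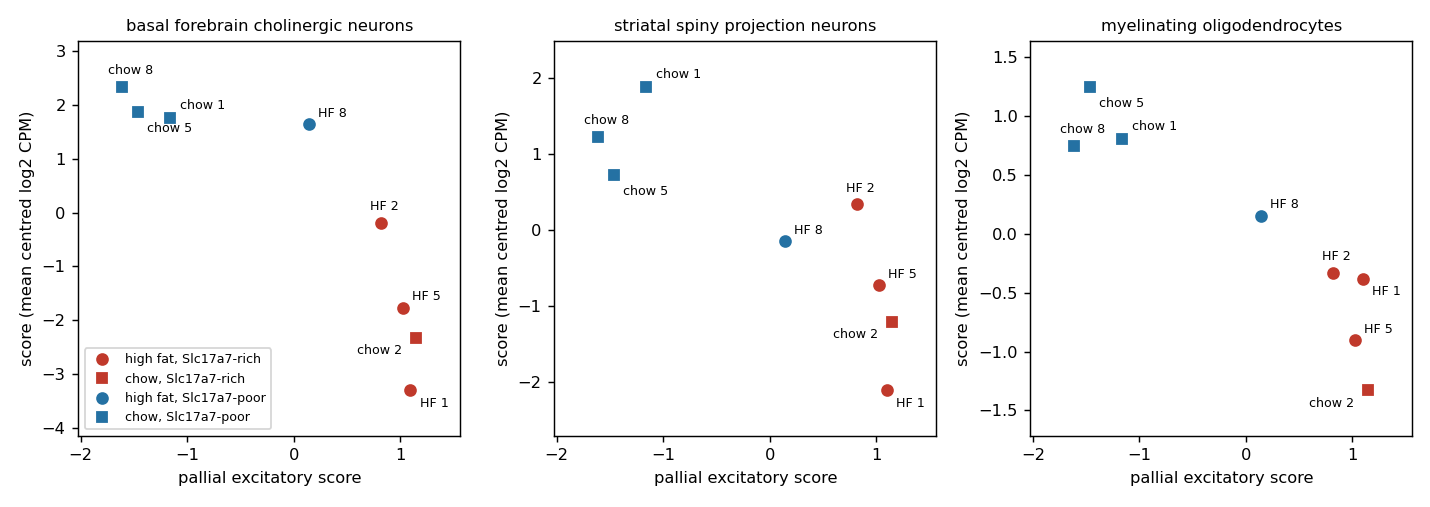
Scores (mean centred log2 CPM) of the cholinergic, striatal and myelin lists against the score of shared pallial genes; each point is 1 library, circles are high fat (HF), squares chow, red Slc17a7-rich and blue Slc17a7-poor. High fat replicate 8 has a pallial score of 0.14, between the rich libraries and the 3 poor chow libraries, but a cholinergic score of 1.64 beside 1.75 to 2.33 in those chow libraries.

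Each library was also the highest of all in some genes. For each one the genes lying farthest above the next highest library were taken, with the gap in log2 CPM. In chow replicate 1 these were Prr32, Tuba1c, Krt18, Msx1 and Drc7, with gaps of 3.21 to 3.54, of which Msx1 is a homeobox gene of the dorsal midline and Drc7 a part of motile cilia. In chow replicate 5 they were led by Prkcd and Tnnt1, with gaps of 2.22 and 2.08. High fat replicate 8 had Hcrt, the orexin gene of lateral hypothalamus, with a gap of 1.69, and Slc6a3 and Avp with 1.29 and 1.26. Hcrt was also at 4.31 to 9.74 CPM in high fat replicate 5 and chow replicates 5 and 8, and at most 0.28 CPM in the rest. High fat replicate 1 had Fibcd1, with a gap of 1.58, and high fat replicate 5 had C1ql2, with 1.10. In high fat replicate 2 and chow replicate 2 the largest gaps were 0.95, in Zfp967, a zinc finger gene, and 0.57, in Slc6a13, a GABA transporter of meninges. Chow replicate 8 had Plin4, a lipid droplet protein, with a gap of 1.25, and Slc5a7 with 0.84.

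The classes and the diets were unevenly combined. Rich libraries were 3 of 4 with high fat diet and 1 of 4 with chow. By column total, the mean Slc17a7 level was 1121 ± 435 CPM in the high fat libraries and 451 ± 549 CPM in the chow libraries (SD, n = 4 each). The difference was 669.5 CPM and the diets overlapped, and since Slc17a7 set the classes neither value is given a test. Diet and class share the same libraries, so the values below are set side by side and are not independent.

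The diets were compared over 15185 genes with edgeR's quasi-likelihood test, and 0 genes (0%) passed an adjusted p of 0.05, with a smallest adjusted p of 0.753. An unadjusted p under 0.05 was found for 649 genes. With the class as a covariate 0 genes (0%) passed, and 115 had an unadjusted p under 0.05. DESeq2 also called 0 genes in each fit, with 990 and 135 at an unadjusted p under 0.05, but its smallest adjusted p for diet alone was 0.0722, closer to the threshold than that of edgeR. Without chow replicate 2, the only rich chow library, the 3 remaining chow libraries were all poor, and edgeR called 116 genes for diet. With the class as a covariate the diet term there rests on high fat replicate 8, the only poor high fat library, against the 3 chow libraries. That fit cannot show whether the class accounts for these calls.

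**Figure D5:**
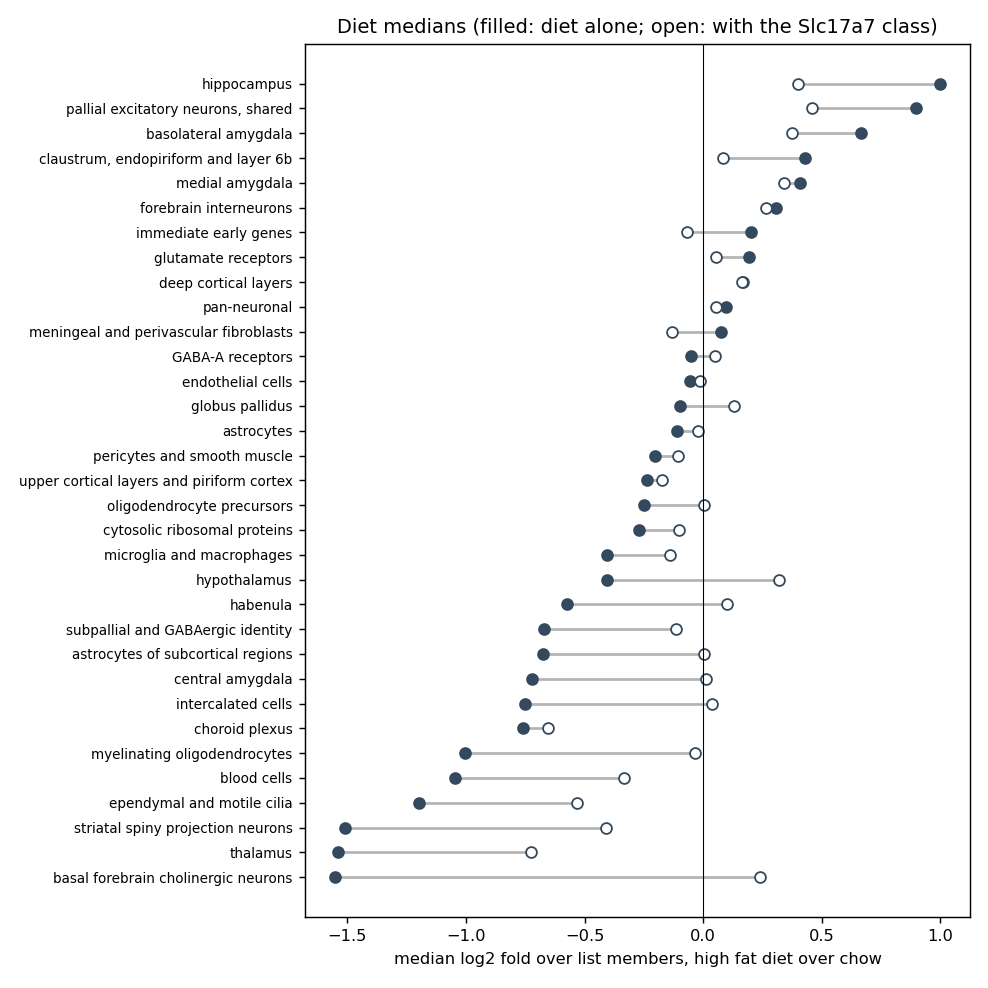
Median log2 fold (high fat over chow, edgeR) over the genes of each of 33 lists, from the fit of diet alone (filled) and from the fit with the Slc17a7 class as a covariate (open), joined by a grey line. The cholinergic median goes from -1.55 to 0.24 and the myelin median from -1.005 to -0.04, while the choroid plexus median goes from -0.76 to -0.65.

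The diet estimates of several lists that differed between the classes were closer to 0 once the class was in the model. The classes were unevenly combined with the diets, so some change of this kind is built in for such lists. The median log2 fold of shared pallial genes, high fat over chow, was 0.90 with diet alone and 0.46 with the class, and that of hippocampal genes 1.00 and 0.40. For cholinergic genes the medians were -1.55 and 0.24, for striatal genes -1.51 and -0.41, for central amygdala genes -0.72 and 0.01 and for myelin genes -1.005 and -0.04. Thalamic genes were at -1.54 and -0.73, and choroid plexus genes were at -0.76 and -0.65. Fibroblast genes went from 0.08 to -0.13 and globus pallidus genes from -0.10 to 0.13, farther from 0. The scores of both of these lists did not overlap between the classes. These are medians of estimates with wide errors, and none of the genes behind them passed the test in either fit.

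Single genes behaved differently from each other. Chat had a log2 fold of -1.69 ± 1.15 with diet alone and 0.05 ± 0.82 with the class (± SE), and Mbp had -1.14 ± 0.50 and -0.09 ± 0.45. Neurod2 had 1.66 ± 0.90 and 1.41 ± 0.45, with high fat replicate 8 above the other poor libraries. The genes with the smallest p for diet alone moved little between the fits. Hvcn1, a voltage-gated proton channel, had -1.23 ± 0.24 and -1.02 ± 0.27, Cyp2e1, a cytochrome P450 that oxidises ethanol, had 1.27 ± 0.29 and 1.23 ± 0.34, and Plagl1, an imprinted zinc finger gene, had 1.05 ± 0.25 and 0.97 ± 0.28. Their adjusted p by edgeR was 0.753 with diet alone and 1 with the class. Frzb, a secreted Wnt inhibitor, was among the smallest p with the class, at 1.55 ± 0.47 and 0.97 ± 0.24, and it was also higher in rich libraries by 1.82.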

How the data were processed

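The 8 libraries were grouped by diet from their titles and by class from the Slc17a7 level. The authors deposited 1 table of estimated counts per gene, of which 35.2% of values were not whole. The submitters' processing notes name Bowtie2 2.2.5, RSEM 1.2.8 and mm10, without a role or an order. Neither the annotation nor the strand setting is named in the sources used here. Reads from overlapping or antisense genes may therefore be mixed, and near-identical genes such as the globin and ribosomal protein genes are uncertain.

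Counts were rounded, and filterByExpr kept 15186 of 18983 genes. Class differences are differences of mean log2 CPM (TMM factors, prior count of 2), with no test. Diet was tested with edgeR 4.0.16 in R 4.3.3 (quasi-likelihood, two-sided, Benjamini-Hochberg over 15185 genes, Slc17a7 left out), with and without the class as a covariate; DESeq2 1.42.0 was an alternative. Scripts were tested on simulated data.

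The class rule, the 33 lists (400 genes) and the alternatives were chosen with earlier results of these data known. Named genes are 11 fixed markers, up to 4 members of each list by size of difference, the 12 largest differences in each direction and the 8 nearest to Slc17a7, both at a mean of at least 5 CPM, 5 leaders per library, and the 4 smallest p of each diet fit; others are named after their values were seen. Of the genes this rule takes, some are not reported here. Coordinates are RefSeq's on GRCm38.p6, matched for 15151 of 15186 genes. Alternatives were RLE factors, column totals, 2 other count filters, a rule at 400 CPM, a prior count of 0.5, other size thresholds, diet or log2 Slc17a7 as a covariate, the title number as a block, and leaving out each library.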

Additional observations from a re-analysis of the deposited data

Results flagged for a closer look

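A library was set apart where its gap to the nearest library of its group of 4 was over Dixon's 95% critical value of the group's range. This was looked for in 152 groups (38 measures in each diet and each class) and found in 15. Chance flags about 1 in 20 groups, but the classes were made from the same table and the 5 single genes are markers of the split, so the number of flags is not read against that rate. List values are scores (mean centred log2 CPM) and gene values are log2 CPM.

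Chow replicate 2, the only rich library on chow, was apart from the other 3 chow libraries in 8 of the 15. It was the highest in the shared pallial score at 1.152, in Neurod2 at 6.849 and in Nptxr at 9.973. It was the lowest in the cholinergic score at -2.331, in Chat at 0.4059, in Lhx8 at -0.7197, in the subpallial score at -0.5881 and in the habenula score at -0.3766. High fat replicate 8 was the highest of the poor class in Neurod2 at 5.842.

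High fat replicate 1 was the highest rich library in Neurod2 at 7.376 and the lowest rich library in the upper cortical and piriform score at -0.2541. Its endothelial score of 0.4136 was the highest both of the high fat and of the rich libraries. High fat replicate 2 was the highest rich library in the habenula score at -0.03779. Chow replicate 1 was the lowest poor library in the glutamate receptor score at -0.5674. The measures share genes and libraries and are not independent.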

How the results depend on the processing

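Under the alternatives 477 list medians moved by less than the spread between replicates and 18 by more, as did 2283 and 4 differences of named genes; of the counts and Slc17a7 values 63 held and 6 moved, and no called value reversed. A size of 0.5 gave 968 genes higher and 980 lower in rich libraries, and no size threshold gave 1637 and 1696, since these rules are wider by construction. In genes averaging 50 counts or more, the hypothalamic median was -2.46 and the habenular one -1.48, with fewer genes left. With the rule at 400 CPM, which puts high fat replicate 8 with the rich libraries, the medians were 0.19 for claustrum, 0.44 for interneurons, -0.59 for habenula and 0.29 for immediate early genes. With diet as a covariate the hippocampal median was 0.91. The cause of the last changes was not tested.

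Leaving out each library in turn gave 345 to 593 genes higher and 346 to 539 lower in rich libraries, with 593 without high fat replicate 8. List medians ranged from -0.73 to 0.53 for medial amygdala, -0.72 to -0.18 for habenula, 1.14 to 1.75 for hippocampus, 0.46 to 0.69 for immediate early genes and 0.060 to 0.40 for interneurons. The choroid plexus median ranged from -0.54 to 1.18 and gives no direction. Diet calls ranged from 0 to 116, the latter without chow replicate 2, and the Slc17a7 difference between diets from 501 to 942 CPM. Without chow replicate 2 the fit with the class as a covariate rests on high fat replicate 8, the only poor high fat library, and its calls are not read.

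Deviations of same-numbered libraries correlated at 0.01, -0.04, 0.04 and 0.39 for title numbers 1, 2, 5 and 8. The value for number 8 was the highest of any high fat and chow pair, beside -0.56 to 0.32 for unlike numbers. Rich libraries were mostly numbered 1 and 2 and poor ones mostly 5 and 8, so differences between classes are partly differences between title numbers. With the replicate block edgeR called 0 genes for diet, with or without the class (571 and 43 at an unadjusted p under 0.05), and it changed no call. With 4 libraries a class, low genes such as Lct (4.03 with a prior count of 0.5) depend on the prior count.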
